A study of Mus musculus with 5 samples.

Results

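Urothelial cells, which line the renal pelvis and the urinary tract below it, made up 144 of the 22591 kept cell barcodes in single-cell RNA libraries of mouse kidney (26237 barcodes were deposited). They were chosen by transcripts alone. A barcode counted as a urothelial cell when it held at least 3 UMIs (unique molecular identifiers, 1 for each captured transcript) summed over Upk1b, Upk3a, Psca, Krt5, Krt15 and Krt19, no UMI of the leukocyte gene Ptprc or of the distal tubule genes Slc12a1 and Slc12a3, and under 2 UMIs of the proximal tubule genes Slc34a1 and Slc5a2. Kept barcodes had at least 200 genes and under 50% mitochondrial UMIs. The cells were spread over 5 libraries, all from C57BL/6j mice in which pristane, a hydrocarbon oil, had induced lupus-like disease. The mice had received either saline (libraries Saline 1 and Saline 2) or a faecal microbiota transplant, FMT (libraries FMT 1, FMT 2 and FMT 3), whose donor the labels do not name, so both arms share the pristane treatment and no library without pristane was analysed here. The labels describe the material as renal tubular epithelial cells, give no age, sex or time, and do not say whether each library is 1 animal. Their title codes also differ between the arms (C and D against B), and a preparation that follows those codes cannot be told apart from the treatment.

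The urothelium is a layered barrier between urine and tissue. Its superficial cells carry plaques of uroplakins, membrane proteins that pair in the endoplasmic reticulum (Upk1a with Upk2, Upk1b with Upk3a) before they reach the surface facing the urine. Basal cells rest on the basement membrane and carry Krt5 and the transcription factor Trp63, and intermediate cells lie between these layers. In the kidney this epithelium is confined to the pelvis and the covering of the papilla, so a kidney preparation holds few of its cells.

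Promoter windows are shown for a uroplakin, for a gene that moved with the uroplakins from cell to cell, and for a basal keratin that moved against them. Each window is the 250 bases before the RefSeq transcription start on GRCm38.p6, written 5′ to 3′ along the gene. They lie at chr15:85016891-85017140 for Upk3a (plus strand), chr3:92485882-92486131 for Sprr1a (minus strand) and chr15:101712906-101713155 for Krt5 (minus strand). Capitals mark exact matches, on either strand, to 6 short motifs searched.
Upk3a: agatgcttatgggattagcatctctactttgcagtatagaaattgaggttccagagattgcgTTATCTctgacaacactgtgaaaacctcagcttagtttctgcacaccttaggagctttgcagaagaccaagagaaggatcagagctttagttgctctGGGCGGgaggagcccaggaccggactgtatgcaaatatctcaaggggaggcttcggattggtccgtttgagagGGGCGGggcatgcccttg
Sprr1a: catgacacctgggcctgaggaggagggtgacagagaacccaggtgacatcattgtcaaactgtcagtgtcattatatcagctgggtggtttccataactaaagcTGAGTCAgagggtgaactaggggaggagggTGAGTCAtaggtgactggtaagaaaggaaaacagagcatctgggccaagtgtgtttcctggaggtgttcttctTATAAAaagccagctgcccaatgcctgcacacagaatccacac
Krt5: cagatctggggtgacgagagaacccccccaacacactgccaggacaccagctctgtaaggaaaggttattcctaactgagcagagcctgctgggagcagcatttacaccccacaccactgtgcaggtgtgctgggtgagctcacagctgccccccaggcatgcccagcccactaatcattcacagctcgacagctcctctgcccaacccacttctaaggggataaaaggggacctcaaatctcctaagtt
In the Upk3a window the capitals are 1 GATA match (AGATAA, here on the opposite strand) and 2 matches of the SP and KLF letters (GGGCGG). The Sprr1a window held 2 AP-1 matches (TGANTCA) that begin 146 and 116 bases before the start, and 1 TATA box match (TATAAA) that begins 43 bases before it. Among 32851 mouse windows of the same length, 6.75% held the AP-1 letters, 9.99% the GATA letters, 12.4% the TATA box letters and 32.7% the SP and KLF letters. The Krt5 window held none of these, nor the Grainyhead (AACCNGTT, 1.79% of windows) or Forkhead letters (TGTTTAC, 3.17%). The window of Upk1a, another uroplakin, was also searched. It held 0 matches to the 6 motifs and is not shown. A match describes letters only. Of the 12 genes looked up, 6 had a window in the table.

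The label fitted most of the markers that the rule did not use. Of 15 further urothelial genes, a cell of the group held a median of 12, and 136 of 144 cells (94.4%) held at least 5. Krt13 and Krt14, also planned as markers, were not among the 15. They were nearly absent, with 1 UMI of Krt13 and 8 UMIs of Krt14. Among other kept cells, at least 5 were found in 0.158% of the proximal tubule class, 2.82% of the distal tubule class and 0.33% of the immune class. These classes are barcodes picked by marker UMIs (Slc34a1 and Slc5a2, Slc12a1 and Slc12a3, and Ptprc). Depth was not equalised here, with a median of 9267 UMIs in urothelial, 5569 in proximal tubule and 3712 in immune cells. The rule left out 36 of 180 barcodes with enough urothelial UMIs, 15 of them for Ptprc, 6 for Slc12a1 or Slc12a3 and 19 for Slc34a1 and Slc5a2, with some counted in more than 1 of these. The threshold mattered little in number, since 119 cells held 10 or more UMIs of the rule genes, 3 held exactly 3 and 8 barcodes fell just short with 2. Those 8 had a median of 1149 UMIs in all and held a median of 4 of 8 checked urothelial genes, against 3 of 8 in the 3 cells just inside the threshold and 8 of 8 in cells with 6 or more UMIs.

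RNA of other cell types was low. Summed over its marker list, endothelium gave 0 to 5.22 CPM (UMIs of the gene per 1000000 UMIs of the urothelial cells of a library), B cells 0 to 12 CPM and T and NK cells 3.12 to 22.5 CPM. Monocyte and macrophage genes gave 0 to 89.9 CPM and neutrophil genes 3.12 to 54.7 CPM, both highest in Saline 1, and erythroid genes gave 3.12 to 355 CPM, highest in FMT 3. Kdr and Cdh5 of endothelium, Col1a1 and Acta2 of stroma and C1qa of macrophages were at 0 UMIs. Slc4a1 and Slc26a4 of intercalated cells and Lrrn4 of mesothelium were also at 0. With 1856303 UMIs in all, this allows up to 1.62 CPM each (3 counts, counting error only). Other genes of these lists were present, such as Pecam1 and Tagln (2 UMIs each) and Msln (15 UMIs in 2 cells). Csf1r of macrophages was found in 1.71% of urothelial cells thinned to 2000 UMIs. In immune cells thinned likewise, C1qa was found in only 1.4%, so its absence says little about macrophage RNA. The intercalated list still summed to between 7.51 and 31.3 CPM, against 15550 CPM in the intercalated class. Most of it was Atp6v1g3, with 30 UMIs in 24 urothelial cells. In intercalated cells thinned to 2000 UMIs, Atp6v1g3 was found in 93.42%, Slc4a1 in 10.96% and Slc26a4 in 29.82%. The absence of Slc4a1 and Slc26a4 therefore says little about intercalated RNA. Proximal tubule markers summed to between 250.2 and 452.2 CPM, against 40700 CPM in the proximal tubule class. Some genes of other lists were high in the urothelial cells themselves. Aqp3 and Gata3 carried the principal cell list, Rgs5 the stromal list, Upk3b the mesothelial list, and Akr1b3 and Sptssb the list of thin limb and papilla.

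There were 5 cells, 4 in Saline 1 and 1 in FMT 2, that held no UMI of Upk1a, Upk1b, Upk2 or Upk3a. A pair of them, both in Saline 1, held 95 and 113 UMIs of Aqp2, the water channel of collecting duct principal cells, 22 and 13 UMIs of the urea transporter Slc14a2 and 76 and 139 UMIs of Cryab, a small heat shock protein abundant in the papilla. No other urothelial cell held Aqp2. Another cell of Saline 1 held 900 of the 1100 Spp1 UMIs of the whole group, 69 of its 75 UMIs of Lcn2, an injury-induced protein of tubular cells, and 118 of Cryab. The remaining 2 were shallow (1373 and 1080 UMIs) and held 0 UMIs of Aqp2, Cryab and Spp1. The former held 4 UMIs of Krt7 and 6 of Krt18, and the latter 3 of Krt7. The calls between FMT and saline are given with and without these cells. Other results include them unless cells with uroplakin are named.

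Numbers and depth varied by library. Saline 1 and Saline 2 held 43 and 12 urothelial cells, and FMT 1 to FMT 3 held 21, 46 and 22. As a share of kept barcodes this was 0.820% in Saline 1 (95% exact binomial interval 0.594 to 1.10, counting error only) and 0.367% in Saline 2 (0.190 to 0.640). The FMT libraries had 0.333% (0.206 to 0.508), 0.938% (0.687 to 1.25) and 0.770% (0.483 to 1.16). Each arm thus had a library near the bottom of the range and a library near its top, and the arms overlapped. The mean was 0.593% ± 0.321 with saline (SD, n = 2) and 0.680% ± 0.312 with FMT (SD, n = 3). That gap of 0.0866 points was smaller than the spread within either arm (two-sided exact permutation p = 0.8, where 2 against 3 libraries cannot go below 0.1). A urothelial cell had a median of 9267 UMIs (560 to 81324), against 4074 over all kept barcodes. The group's UMIs summed to between 166753 (Saline 2) and 665636 (FMT 2) per library, while whole libraries held 15333445 to 45309178. Median mitochondrial UMIs were 1.502%, 20 cells were over 10% and 3 over 25%. Pairs of libraries shared 2 to 8 kept barcodes, and 0 of these were urothelial cells. Scrublet, a doublet caller, marked 0 of the 144.

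**Figure D1:**
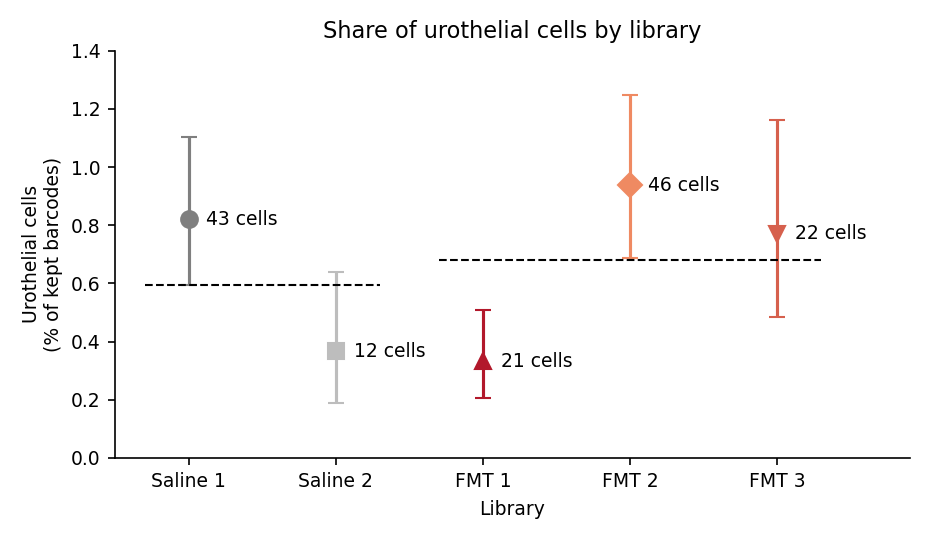
Urothelial cells as a percentage of kept barcodes in each library, with 95% exact binomial intervals (bars), the number of cells beside each point and the mean of each arm (dashed lines). The 2 saline libraries (0.820% and 0.367%) lie within the range of the 3 FMT libraries (0.333% to 0.938%).

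The uroplakins given here were found in most urothelial cells. Their levels describe cells that were picked partly on uroplakins, so no test is attached. Upk3a (chromosome 15, 85017141 to 85022547, GRCm38), the partner without which plaques do not form properly, was at 3622 and 3028 CPM in Saline 1 and 2 and at 4333, 4139 and 4193 CPM in FMT 1 to 3. Over all other kept cells pooled it was at 16.1 CPM. Its partner Upk1b (chromosome 16, 38773184 to 38800328) was at 764 and 599.7 CPM with saline and at 2067, 984 and 872 CPM with FMT, so FMT 1 stood above the other libraries. Upk1a (chromosome 7, 30603092 to 30612847), which the rule did not count, was found in 128 of 144 cells, at 1619 to 2444 CPM. Upk2 (chromosome 9, 44452715 to 44454976), its partner, was found in 120 cells at 612 to 1054 CPM. Upk3b, a uroplakin also used as a mesothelial marker, was found in 112 cells at 161.9 to 389.6 CPM. Psca (chromosome 15, 74714839 to 74717069), a surface antigen of the Ly6 family, was spread more widely between libraries, from 956 CPM in FMT 3 to 3653 CPM in FMT 1.

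Krt7 and Krt18, keratins of simple epithelium, were each found in 140 of 144 cells. Krt19 (chromosome 11, 100140810 to 100148665), counted by the rule, was found in 133 cells at 2595 to 4030 CPM, and Krt8, the partner of Krt18, in 126. Krt5, the basal keratin counted by the rule, was found in 89 cells at 407 to 762 CPM. Krt20, a keratin of fully mature superficial cells, was found in 83 cells at 162 to 620.3 CPM, highest in FMT 1. Krt13 had 1 UMI and Krt14, a keratin of basal progenitor cells, 8 UMIs in 1 cell. Krt15 had 33 UMIs in 10 cells. Krt6a, Krt16 and Krt17, keratins of stressed or squamous epithelium, had none. Krt10, a keratin of cornified epithelium, was found at 2000 UMIs in 8.55% of urothelial cells and in 7.3% of proximal tubule cells.

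At equal depth the same genes were found in most cells or in a large minority. After 117 urothelial cells had been thinned to 2000 UMIs (27 shallower cells left out), Krt19 was still found in 95.7%, Upk3a in 88.0%, Upk1a in 80.3%, Upk2 in 65.8%, Krt5 in 41.0% and Krt20 in 36.8%. Among 1000 proximal tubule cells thinned likewise, Upk1a was found in 0.2% and the other 5 genes in at most 0.4%. Among 1000 immune cells Upk1a was also at 0.2%.

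Genes with the largest ratio to other kept cells were ranked by the smallest ratio in any library, as a description. At least 100 CPM in every library was reached by 992 genes, of which 101 exceeded all other kept cells by at least 10-fold in each library. Fxyd3, a regulator of the sodium pump, led with a smallest ratio of 149 and levels of 2133 to 2317 CPM. Behind it came Krt19 (142), the immunoglobulin family gene Vsig2 (126), Sptssb, a subunit that shapes which sphingolipids are made (123), Upk3a (117), Enho (117) and Igfbp2, which binds insulin-like growth factors (113). The 30 leading genes included the enzymes Aldh3a1 (554 to 1247 CPM), Cbr2 (276 to 810 CPM), Akr1b8 (287 to 474 CPM), Fmo5 (923 to 1780 CPM) and Cyp4f15 (141 to 408 CPM). Transcription regulators among them were Trp63, Tbx3, which is expressed in the developing urinary tract, Foxq1, Lmo1 and Dnmt3l.

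**Figure D2:**
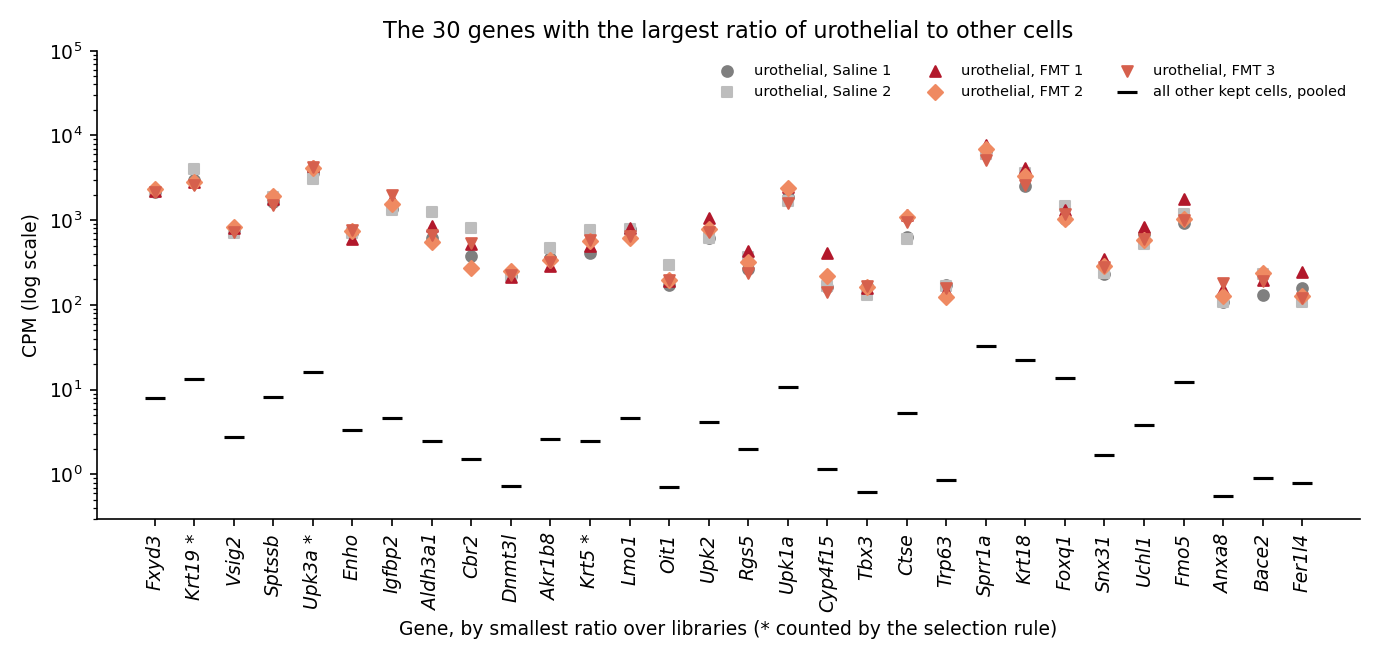
CPM on a log scale of the 30 genes with the largest smallest-over-libraries ratio, in urothelial cells of each library (symbols) and in all other kept cells pooled (black bars). Every symbol lies at 108 CPM or above, while all other cells lie at 33.2 CPM or below.

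Sprr1a, a cornified envelope precursor induced in stressed epithelia, was at 6622 and 6009 CPM with saline and 7668, 6935 and 5138 CPM with FMT, against 33.2 CPM in all other kept cells. It was found in 130 of the 144 cells. Ly6d, a surface protein of the same family as Psca, was at 5085 to 7934 CPM, and Wfdc2, a secreted protease inhibitor, at 3160 to 4666 CPM. The calcium binding protein S100a6 was found in 143 of 144 cells at 31909 to 39557 CPM. Glutathione transferases Gstm1 (16397 to 27526 CPM) and Gsta4 (6705 to 10141 CPM), which conjugate reactive compounds, and the aldose reductase Akr1b3 (4157 to 6100 CPM), which makes sorbitol, were above their levels in the proximal tubule class (761, 896 and 31.9 CPM). These levels are per UMI and not per transcript length, so they rank no gene above another.

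Barrier, transport and signalling genes were also found, some of them in other tubule classes too. The tight junction genes Cldn4 (426 to 804 CPM) and Cldn7 (288 to 514 CPM) stood at 2.02 and 2.98 CPM in the proximal tubule class. Cldn7 was at 147 CPM in the distal tubule class and at 91.1 CPM in the intercalated class. The desmosome gene Perp was at 495 to 605 CPM. The cadherin Cdh1 was at 183 to 243 CPM, against 101 CPM in the distal tubule class. Aqp3, a channel for water and glycerol, was at 744 to 1535 CPM, and the urea transporter Slc14a1 at 76.6 to 146 CPM. The listed channels and transporters together reached 1637 to 2773 CPM, against 9370 CPM in the distal tubule class. The ligand Shh (106 to 188 CPM), which urothelium sends to the stroma below it, and Wnt4 (120 to 195 CPM) were at 1.09 and 0.384 CPM in the proximal tubule class. Notch1 and its ligand Jag1 were at 66.0 to 99.7 CPM and 54.0 to 96.6 CPM, with Jag1 at 79.9 CPM in the intercalated class. Of 11 genes of MHC class II presentation, 10 had a UMI, and together they reached 18.7 to 82.6 CPM, against 8026 CPM in the immune class. MHC class I genes were present in most cells, H2-K1 in 130 and B2m in 131. Of 23 cytokine and chemokine genes, 14 had a UMI. Mif, a cytokine that many cell types make, was found in 109 cells at 510 to 663 CPM (2137 CPM in the proximal tubule class), Tgfb1 in 72 cells at 90.4 to 114 CPM and Il18 in 48 cells, while Il6, Tnf, Ccl2 and Cxcl5 had 0 UMIs.

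Cell cycle genes were split between those found in many cells and those with few or no UMIs. Of 24 listed, 18 had a UMI. Stmn1, which destabilises microtubules, was found in 98 cells at 387 to 504 CPM (88.6 CPM in the proximal tubule class), the cyclin Ccnd2 in 87, the cell cycle inhibitor Cdkn1a in 74 and the replication clamp Pcna in 51. The mitotic genes Mki67, Birc5 and Ccnb1 had 0 UMIs and Top2a had 2. A count of 0 of 144 cells allows a share of up to 2.08% of cells with a UMI (3 counts, counting error only) and sets no limit on cells that express the gene.

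Uroplakin and basal genes were found in the same cells. Of the 144 cells, 139 held a uroplakin UMI and 101 held a UMI of Krt5, Krt14, Krt15 or Trp63. All 101 of these also held a uroplakin, so 0 cells were basal without uroplakin, 38 held uroplakin alone and 5 held neither. The rule counts genes of both kinds, so these numbers describe the cells it picked. At 2000 UMIs, Upk1b, Upk2 and Upk3a were found in 0% of the 1000 proximal tubule cells and Krt5 in 0%. Among 90 cells with uroplakin thinned to 4000 UMIs, 76 held a basal gene. Krt5 and Krt20, keratins of opposite layers, occurred together in 35 of these 90 cells, Krt5 alone in 27, Krt20 alone in 14 and neither in 14. The comparison planned between uroplakin cells and basal cells without uroplakin could not be made.

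A graded change was present instead. It was described with Upk1a and Upk2, which the rule did not use, as a reference, a choice made after the data had been seen. The same 90 thinned cells were ranked by their UMIs of these 2 genes and cut into a low, a middle and a high group of 30 cells each at 5 and 14 UMIs, with 28 and 17 cells within 2 UMIs of a cut. Rank correlations (Spearman's rho) were taken for 1516 genes found in at least 30% of the cells. They are descriptions, since cells of 1 library share their source, and the reference was unrelated to depth before thinning (rho 0.009). The median gene had a rho of −0.005.

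Psca, Upk1b, Upk3a and Clu were higher where Upk1a and Upk2 were higher. Psca went from 2.75 UMIs per 10000 in the low group to 16.2 in the middle and 69.3 in the high group (rho 0.72, and 0.67 to 0.76 within the 4 libraries with at least 10 cells). Upk1b went from 4.83 to 7.58 to 28.7 (rho 0.61) and Upk3a from 23 to 31.2 to 63.3 (rho 0.60). Clu, a secreted chaperone, went from 0.75 to 4.50 to 19.8 (rho 0.60) and Fam25c from 0.417 to 4.75 to 9.75 (rho 0.57). Sprr1a, Rgs5 and Krt18 had rho values of 0.54, 0.53 and 0.51. These 8 genes were all that exceeded 0.5, and each had the same sign in all 4 libraries.

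Cbr2, Ptgs1, Ptma and Ly6a had the lowest rho values. Ptgs1, the constitutive cyclooxygenase that starts prostaglandin synthesis, went from 5.92 to 1.42 to 0.333 UMIs per 10000 (rho −0.54). Cbr2, a carbonyl reductase, went from 7.5 to 5.5 to 1.5 (rho −0.54), and Ly6a, known as stem cell antigen 1, from 4.58 to 2.83 to 0.333 (rho −0.52). Ptma (rho −0.52), Txnip (−0.49), Igfbp2 (−0.45), Aldh3a1 (−0.42) and Gstp1 (−0.42) followed. Of 18 glutathione and xenobiotic enzyme genes compared, 12 were below 0 and 6 above, with a median of −0.04, while 51.5% of all 1516 genes were below 0. Gstm1, for example, had a rho of 0.19. Of 79 ribosomal protein genes, a group added after values had been seen, 76 were below 0 with a median of −0.20, and Rpl13 went from 66.0 to 56.3 to 40.3 per 10000 (rho −0.45). The nuclear RNA Malat1 was at −0.39. Krt5 went from 7 to 5.83 to 2.17 (rho −0.45), with rho between −0.60 and −0.49 in 3 libraries and 0.15 in FMT 3. Trp63 was weaker at −0.18.

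Other urothelial genes did not follow this axis. Krt20 had a rho of 0.05 and 2.75, 2.58 and 2.42 UMIs per 10000 in the 3 groups, with values within libraries from −0.30 to 0.64. Krt19 (−0.09), Fxyd3 (0.01), Ly6d (−0.03), Foxq1 (−0.12) and Gata3 (−0.14), the last a regulator of urothelial fate, were also close to 0 over all cells and changed sign between libraries. The groups were unevenly filled by library. The low group held 9 of 13 cells of FMT 3 but 2 of 16 of FMT 1, with 8 of 24 in Saline 1, 2 of 8 in Saline 2 and 9 of 29 in FMT 2. FMT 1 and FMT 3 also had the highest and the lowest Psca level.

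**Figure D3:**
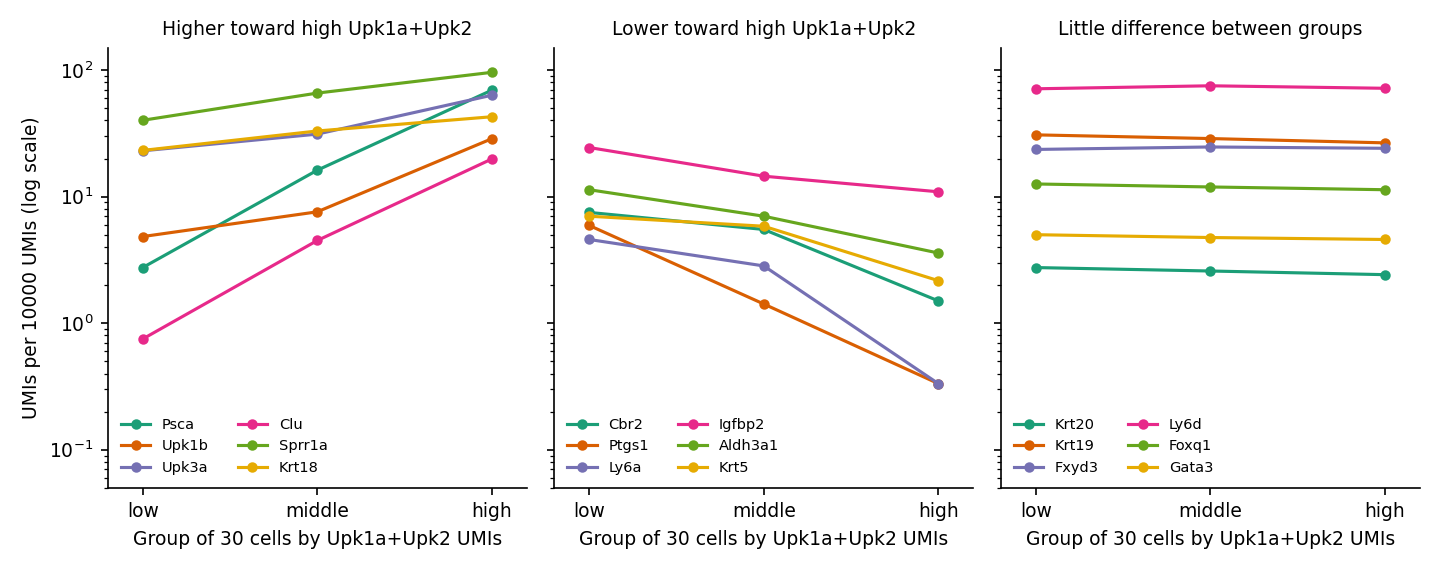
Mean UMIs per 10000 UMIs (log scale) of selected genes in 3 groups of 30 cells ranked by Upk1a and Upk2 UMIs, in 90 cells thinned to 4000 UMIs. Psca climbs from 2.75 to 69.3 and Ptgs1 drops from 5.92 to 0.333, while Krt20 stays between 2.42 and 2.75. A few cells weigh on the high group, such as 1 cell of FMT 2 with 244 Psca UMIs.

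**Figure D4:**
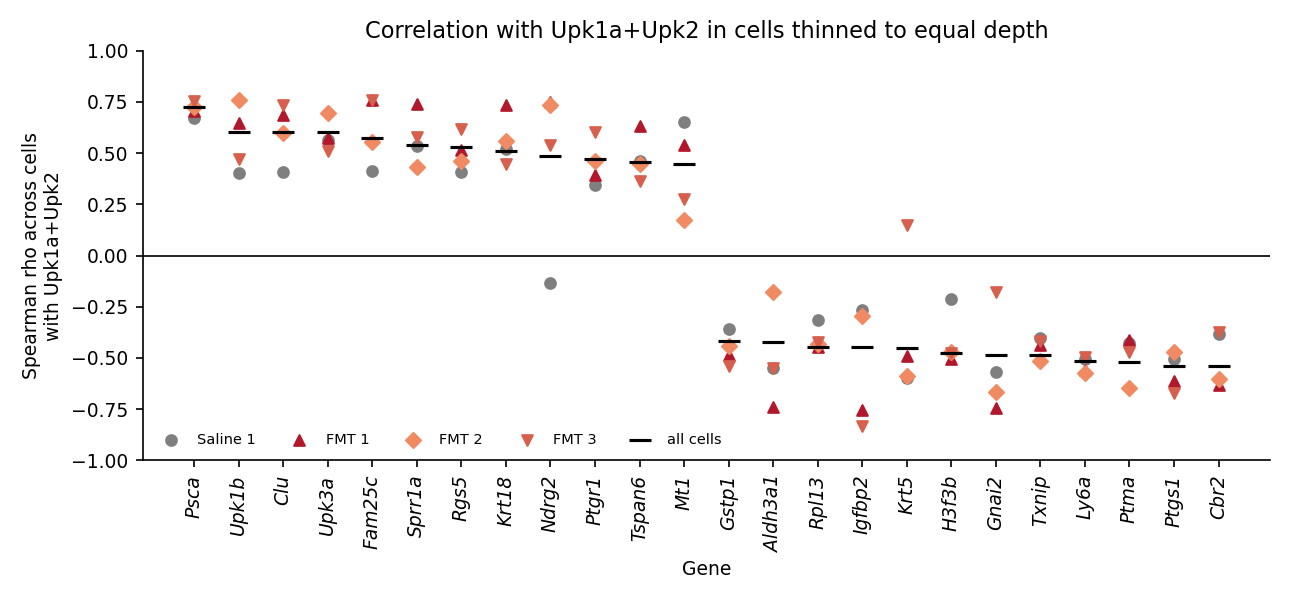
Spearman's rho with the Upk1a and Upk2 sum across cells for the 12 highest and 12 lowest genes (mitochondrial genes and predicted gene models left out), over all 90 cells (black bars) and within the 4 libraries that had at least 10 of them (symbols). Within-library values lie on the same side of 0 as the overall value for 22 of the 24 genes, the exceptions being Ndrg2 in Saline 1 (−0.13) and Krt5 in FMT 3 (0.15).

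Between FMT and saline, few genes were called in urothelial cells, and the calls rested on few cells. On simulated data the test called 26 of 88 genes changed 2-fold, so few calls do not show that few genes differed. UMIs were summed per library, and edgeR's quasi-likelihood test called 2 of 4647 genes tested (0.0430%) at an adjusted p under 0.05, both lower in FMT. The genes were Sgk1 and Gsdmc3. An unadjusted p under 0.05 was reached by 180 genes (3.87%), and the median log2 change was −0.002. Neither call was made when the 5 cells without uroplakin were left out, where 0 of 4608 genes were called and 181 had an unadjusted p under 0.05. Fewer cells of a state and less RNA per cell cannot be told apart in such sums. The p-values measure the spread between these libraries.

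Sgk1, a kinase induced by aldosterone and glucocorticoids that promotes sodium uptake, was at 217 CPM in Saline 1 and 179.9 CPM in Saline 2. In FMT 1, 2 and 3 it was at 68.6, 64.6 and 73.1 CPM. Both saline libraries lay above all 3 FMT libraries, which were close to each other. The level fell by 1.65 on the log2 scale (SE 0.251, edgeR adjusted p = 0.00986), from 198 ± 26.2 CPM (SD, n = 2) to 68.8 ± 4.26 CPM (SD, n = 3). The saline UMIs came from 23 cells of Saline 1 and 5 of Saline 2, with 43.3% of those of Saline 2 from 1 cell. In Saline 1, 39 of the 111 UMIs lay in the cells without uroplakin. Without those cells Saline 1 was at 152 CPM, still above the FMT libraries, the change was −1.34 and the edgeR adjusted p was 0.197. Sgk1 (chromosome 10, 21882184 to 21999903, GRCm38) also lost its call by DESeq2 and without Saline 1, FMT 1 or FMT 3, with adjusted p between 2.01e-05 and 0.508 over 14 alternatives. In the other kept cells Sgk1 showed the same order, at 272 and 218 CPM with saline and 74.0, 31.7 and 77.4 CPM with FMT. The proximal tubule class had 409.9 and 351 CPM against 82.7, 31.1 and 85.9 CPM. The part of RNA from outside the cell in the urothelial values was not tested.

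Gsdmc3, a member of the gasdermin family of pore-forming proteins, was at 74.3 and 155.9 CPM with saline and at 0, 10.5 and 10.4 CPM with FMT. The groups did not overlap, and the level fell by 3.81 (SE 0.563, edgeR adjusted p = 0.00986). Single cells carried it. In Saline 1, 26 of 38 UMIs came from 1 cell, which is among those without uroplakin, and all 26 UMIs of Saline 2 came from 1 cell. Without the cells that lacked uroplakin, Saline 1 was at 25.3 CPM and the gene no longer passed the filter on low counts. The call was also lost without FMT 1 or FMT 3, where the edgeR adjusted p was 0.215 at the highest. Gsdmc3 (chromosome 15, 63857724 to 63878558) has near-identical neighbours, so reads may be divided among them. Its paralog Gsdmc2 was at 178 and 269.9 CPM with saline and at 3.12, 90.1 and 172 CPM with FMT, and was not called (−1.47, edgeR adjusted p = 0.999).

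Genes next in order of p did not pass. Ly6k, a surface protein of the Ly6 family, was at 199 and 222 CPM with saline and 65.5, 97.7 and 36.6 CPM with FMT (log2 change −1.57, edgeR adjusted p = 0.0926), but all 37 UMIs of Saline 2 and 44 of the 65 of FMT 2 came from single cells. S100a4 was at 115 and 258 CPM against 65.5, 55.6 and 78.3 CPM (−1.501, edgeR adjusted p = 0.3). Gsta1, a glutathione transferase with close paralogs, was at 72.3 and 78.0 CPM against 34.3, 31.6 and 31.3 CPM (−1.26, edgeR adjusted p = 0.9).

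On the higher side in FMT, Jun and Fos, which form the AP-1 factor, had log2 changes of 0.89 and 0.94 (edgeR adjusted p = 0.9 each). Jun was at 295 and 234 CPM with saline and 480.0, 476 and 627 CPM with FMT. Fos was at 139 and 222 CPM with saline and 377, 303 and 376 CPM with FMT. Every FMT library lay above both saline libraries in either gene, as in 13.3% of all genes tested, and both genes were picked by their p. Of the Fos UMIs of FMT 1, 56.2% came from 1 cell, as did 55.8% of the Jun UMIs of FMT 3. Ndrg1, a gene induced by low oxygen, was at 21.5 and 12 CPM against 56.1, 58.6 and 52.2 CPM (1.503, edgeR adjusted p = 0.9). Meg3, a long non-coding RNA, had 0 UMIs in both saline libraries and 37, 25 and 2 UMIs in FMT 1 to 3 from 3, 1 and 1 cells. Its edgeR adjusted p was 0.222. Pooled, the FMT level was 12.3-fold a limit of 3 UMIs over the saline cells. That limit takes UMIs as independent, while few cells held them all, so the ratio is no lower bound on a difference between the arms. The ratio was 7.1-fold without FMT 1, which held 37 of the 64 UMIs, and 3-fold without Saline 1. Erdr1 was at 1.95 and 6.00 CPM against 125, 39.1 and 491 CPM (edgeR adjusted p = 0.222), and the other kept cells had 8.21 and 5.85 CPM against 105, 57.4 and 485 CPM.

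**Figure D5:**
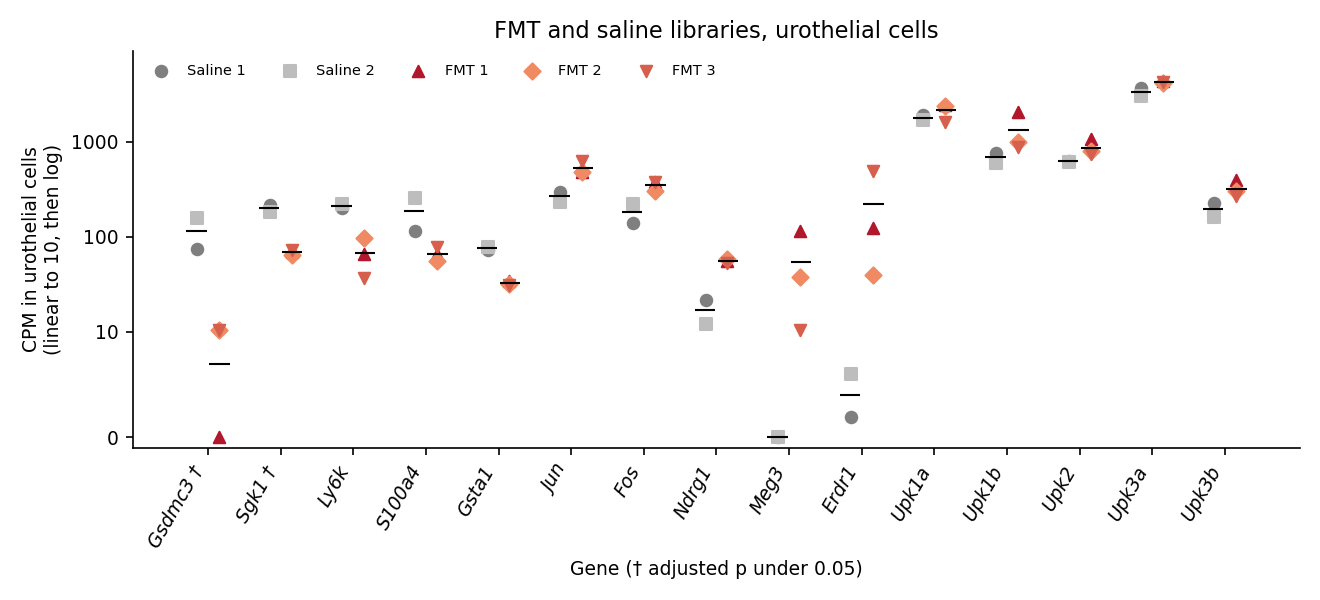
CPM of the genes with the smallest p in either direction and of 5 uroplakins in urothelial cells, per library (symbols) and as the mean of each arm (lines), on an axis that is linear to 10 CPM and logarithmic above. Daggers mark the 2 called genes, Gsdmc3 and Sgk1, in which both saline libraries lie above all FMT libraries.

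The 3 tested uroplakin genes that the rule did not count had positive log2 changes with FMT, without a call. Upk1a had a change of 0.18 (edgeR adjusted p = 0.999), with overlap between the arms. Upk2 was at 626 and 612 CPM with saline and 1054, 790.2 and 731 CPM with FMT (0.39, edgeR adjusted p = 0.999). Upk3b was at 226.7 and 161.9 CPM against 389.6, 302 and 266 CPM (0.60, SE 0.242, edgeR adjusted p = 0.999). Upk2 and Upk3b had all FMT libraries above both saline libraries, a pattern shown by 13.3% of all genes tested (the reverse was shown by 6.71%). Upk1b and Upk3a were used to pick the cells, so their levels, given above, carry no test. The share of cells with a UMI of Upk1a, Upk1b, Upk2 or Upk3a was 90.7% and 100% with saline and 100%, 97.8% and 100% with FMT. The means were 95.3% ± 6.58 (SD, n = 2) and 99.3% ± 1.26 (SD, n = 3), also a description, since the rule counts 2 of these genes. Basal keratin genes or Trp63 were found in 65.1% and 75% of cells with saline and 66.7%, 78.3% and 63.6% with FMT, so the arms overlapped.

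Basal genes went both ways. Of 9 tested, among them the rule gene Krt5, 3 were higher and 6 lower, with a median of −0.14 and 0 calls. Aqp3 was at 1022 and 744 CPM with saline and 1318, 1436 and 1535 CPM with FMT (log2 change 0.61, edgeR adjusted p = 0.999). Krt5 was at 407 and 762 CPM against 492, 572 and 590.1 CPM, with overlap. Trp63 was at 172 and 168 CPM against 146, 123 and 157 CPM (−0.37, edgeR adjusted p = 0.999).

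Tight junction genes were higher for 8 of 9 members, with a median of 0.32 and 0 calls. The list's median was 0.15 without Saline 2, the library with the fewest cells. Of 14 desmosome and hemidesmosome genes, 6 were higher and 8 lower, with 0 calls.

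MHC class I genes, which present peptides to CD8 T cells, were higher for 10 of 11 members, with a median of 0.25 and 0 calls. H2-K1, H2-D1, H2-Q7, H2-T23 and Tap2 had every FMT library above both saline libraries, as did 13.3% of all genes tested. H2-D1 was at 1022 and 1025 CPM with saline and 1356, 1336 and 1232 CPM with FMT, a log2 change of 0.27 (SE 0.212, edgeR adjusted p = 0.999). The invariant chain B2m was at 858 and 888 CPM against 863, 1020.1 and 893 CPM (0.01). Without Saline 1, 8 of 11 were higher and the median was 0.18. Sequence similarity among H2 genes may divide their reads. Of 13 tested genes of the interferon response, 9 were higher, with a median of 0.14 and 0 calls. Ly6e was on the other side at −0.85 (edgeR adjusted p = 0.9).

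Immediate early genes were higher for 10 of 14 members with a median of 0.30, and the list's median was 0.71 without Saline 1 and 0.15 without FMT 3. Besides Fos and Jun, Fosb and Jund lay above both saline libraries in every FMT library, and Zfp36 lay below them, patterns shown by 13.3% and 6.71% of all genes tested. Junb went the other way at −0.53 (edgeR adjusted p = 0.999). Of 6 tested glucocorticoid targets and brakes of the growth kinase complex mTORC1, 5 were lower, with a median of −0.41, and Sgk1 was the only call. The metallothioneins Mt1 (577 and 516 CPM against 474, 445 and 428 CPM) and Mt2 (86.0 and 78.0 CPM against 56.1, 72.1 and 57.4 CPM) did not overlap either.

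Detoxification genes were lower for 18 of 24 members, with a median of −0.18 and 0 calls, and without Saline 2 for 13 of 25. Gstm1 was at 17530 and 27526 CPM with saline and 22608, 18696 and 16397 CPM with FMT. Genes of purine signalling and inosine handling, the metabolite named in the series title, were higher for 4 of 7 and lower for 3, with a median of 0.14 and 0 calls. Slc29a1, a transporter of adenosine and inosine, was at 19.6 and 12 CPM with saline and 74.8, 22.5 and 41.8 CPM with FMT (log2 change 1.20, edgeR adjusted p = 0.999). Of 11 tested growth factors and receptors, 5 were higher and 6 lower.

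Mitochondrial genome transcripts were lower for 12 of 12 members, with a median of −0.56, 0 calls and overlap between the arms in every gene. Together they made up 20900 and 33190 CPM with saline and 17130, 10170 and 30180 CPM with FMT. The median was −0.23 without FMT 2, −0.27 without Saline 2 and −1.12 without FMT 3. Proximal tubule markers, foreign to these cells, were higher for 3 of 3 tested. The sum over all 17 listed markers was 250.2 and 329.8 CPM with saline and 349, 452.2 and 334 CPM with FMT. The list includes Slc34a1 and Slc5a2, which the rule limits in these cells. The part of such RNA in the other gene groups was not tested.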

How the data were processed

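Gene counts of single cells were analysed in 5 kidney libraries (2 saline, 3 FMT), labelled as 10x Genomics. The deposited matrices hold UMI counts, whole numbers per gene and barcode, with 27998 genes. Cell Ranger is given as 2.1.1 per the submitters' processing notes and as 4.0.0 per the file headers, so the version is uncertain. The extract protocol names kits for bulk RNA, which does not match droplet libraries. Depth limits precision: the urothelial sums were 166753 to 665636 UMIs per library, and intervals cover counting error only.

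From these counts, urothelial cells were selected on marker UMIs in Python 3.11.15 (scanpy 1.11.5 for Scrublet). The members, lists and rules were chosen with earlier results of these data known. UMIs were summed per library and tested with edgeR 4.0.16 (quasi-likelihood, TMM, filterByExpr, Benjamini-Hochberg over all genes tested, at 0.05) in R 4.3.3. Libraries with under 10 urothelial cells would have been left out, and none was. Shares were compared with exact permutation tests. Contrasts with other cells are descriptions, since the rule uses them, as are correlations across cells. Named genes were the called genes or, where fewer than 5 were called, the 5 smallest p per direction, predicted gene models left out, the 30 genes with the largest ratio to other cells, and up to 5 members per list by level. Others were chosen after their values were seen, and the values of a single gene are not reported here.

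The test was tested on simulated data for this comparison, over 4326 genes. It called 26 of 88 genes changed 2-fold (true log2 change 1), 81 of 85 changed 4-fold (true log2 change 2) and 7 of 4153 unchanged genes. Sums were drawn per library, without single cells that carry most UMIs of a gene, as for Gsdmc3 and Meg3. The rates may not hold for such genes. Alternatives were RLE scaling, DESeq2 1.42.0, other filters and cell definitions, a replicate block and leaving out each library. Coordinates come from GENCODE M21 (GRCm38), and promoter windows from RefSeq.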

Additional observations from a re-analysis of the deposited data

How the results depend on the processing

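The 2 calls in urothelial cells were 2 under RLE scaling, a filter of 10 UMIs in every library of a group, at least 5 UMIs of the rule genes, without Scrublet doublets or under 25% mitochondrial UMIs. They were 1 with DESeq2 (55 genes with an unadjusted p under 0.05), 32 with no filter on low counts (7 higher, 25 lower) and 0 in cells with a uroplakin UMI (181 with an unadjusted p under 0.05). With the replicate block there were 8 (2 higher, 6 lower). Whether replicate numbers pair the libraries could not be decided. Same-numbered libraries had correlations of −0.057 and 0.011 in their deviations from the arm mean. With 2 saline libraries these deviations mirror each other, so the correlations cannot exclude a pairing. Leaving out 1 library gave 0 to 32 calls: 2 without Saline 1, 32 without Saline 2, 0 without FMT 1 or FMT 3 (157 and 195 with an unadjusted p under 0.05) and 6 without FMT 2. These counts do not always stand for the same genes, and without Saline 1 Sgk1 was not among them. In the fits with 1 saline library, that library is assumed to vary like the FMT libraries. Requiring at least 20 urothelial cells leaves out Saline 2 alone, which is the same fit. The 10 named genes kept their direction under every alternative that tested them.

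The difference in the share of urothelial cells was −0.037 points among barcodes without Ptprc, and −0.14 to 0.313 when 1 library was left out, negative without Saline 2 (−0.14) or FMT 2 (−0.0422). The difference in the share with a uroplakin, 3.93 points over all libraries and given as a description, was −0.725 to 8.58 points when 1 library was left out, negative without Saline 1 (−0.725). With 12 cells in Saline 2, single cells can carry a gene's level there. Genes of low count were left untested by the filter.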

Other observations

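Lists not described above were mixed between FMT and saline. Urothelial transcription factors were higher for 9 of 20 tested genes and lower for 11, with a median log2 change of −0.01 and 0 calls. Keratins were higher for 6 of 8 with a median of 0.08 and 0 calls. Among them Krt19, which the rule counts, alone had every FMT library below both saline libraries. That pattern was shown by 6.71% of all genes tested. Heat shock genes were lower for 8 of 12, with a median of −0.07 and 0 calls. The 16 annexin, S100 and calcium binding genes were split evenly, 8 higher and 8 lower, with 0 calls. Cell cycle genes were lower for 5 of 7 and urinary defence genes higher for 4 of 6, with 0 calls in both.

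Reg3g, a secreted antibacterial lectin, was found in 8 of 144 urothelial cells, at 7.82 and 6.00 CPM with saline and 3.12, 105 and 31.3 CPM with FMT, so FMT 2 and FMT 3 lay above the other libraries and FMT 1 below them. The other kept cells pooled had 0.023 CPM. Fabp4, a fatty acid carrier that PPAR gamma induces, was at 291 and 924 CPM with saline and 1256, 344 and 245 CPM with FMT, a spread within each arm that exceeded the difference between them. Reg3g and Fabp4 were picked with their values in view.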
